A study of Mus musculus with 2 samples.

Results

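The genes described here encode the endosomal sorting machinery named for vacuolar protein sorting (Vps) and for charged multivesicular body proteins (Chmp). Members were the annotated protein coding genes with at least 1 read whose symbol begins with Chmp and a digit from 1 to 7 or with Vps and a digit. Vps72, which codes for a chromatin remodelling subunit, was left out. This gave 44 genes, of 14616 protein coding and 17707 annotated genes with reads. The RNA came from adrenal glands of female B6CASTF1/J mice, an F1 hybrid, aged 18 to 20 months. Long-read sequencing, in which 1 read follows 1 cDNA molecule, was run on 2 libraries made from 1 µg of total RNA each, with spike-in RNAs added. Both belong to 1 group, untreated as far as the labels say, and the labels name them biological replicates 1 and 2. They have separate biosamples but the same donor entry, so the labels do not settle whether they are separate animals, and p-values compare these libraries only, not animals.

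ESCRT complexes sort ubiquitin-tagged membrane proteins into vesicles that bud into the lumen of the endosome. ESCRT-I and ESCRT-II gather the cargo and start the bud, ESCRT-III filaments constrict its neck, and the Vps4 ATPases take the filaments apart. Retromer and retriever carry other cargo out of the endosome for reuse, HOPS and CORVET tether endosomes before fusion, and GARP and EARP tether vesicles that return from endosomes. In steroid-making cells of the adrenal cortex, endosomes can also receive lipoprotein cholesterol, the starting material of steroid hormones.

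Replicate 1 held 1412947 and replicate 2 held 933963 reads on annotated genes, and levels are given as CPM, each gene's reads scaled to the same library total. CPM was not divided by length, since a read stands for a molecule whatever its length. Median reads per coding gene still fell with length, from 44 for longest coding transcripts of 2001 to 4000 nt to 20 at 6001 to 9000 nt. Between genes of unlike length, level and recovery of cDNA therefore cannot be told apart. Skeletal muscle markers, 5 genes, summed to 989 reads in replicate 1 and 1 read in replicate 2. The 6 fat markers summed to 7116 and 4250 CPM, the 5 adrenal medulla markers to 11990 and 9406 CPM and the 6 adrenal cortex markers to 73150 and 72865 CPM. Single cortex markers differed in both directions: 2 were called higher in replicate 1 and 3 in replicate 2 by the binomial test described below. Cyp11b1 had 20398 and 13534 CPM, and Star had 8352 and 12540 CPM. In fat and in medulla, 4 markers each were called higher in replicate 1 and 0 in replicate 2. Of the 2 liver and 2 kidney markers none exceeded 4 reads in a library, and Umod was at 0 in both. The part of other tissues in the library differences below was not tested, and in bulk RNA fewer cells of a type and less RNA per cell cannot be told apart.

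All 44 members had reads in replicate 1 and 43 had reads in replicate 2. They took 0.436% of gene reads in replicate 1 (exact 95% interval 0.425 to 0.447) and 0.397% in replicate 2 (0.384 to 0.41), or 0.416% ± 0.027 (SD, n = 2). Intervals here cover counting error only. By complex, ESCRT-III held the most, 1261 ± 248 CPM over 10 genes (SD, n = 2). HOPS and CORVET subunits held 722 ± 0.588 CPM over 7 genes, the retromer 570 ± 35.5 CPM over 4, and the named ESCRT-I subunits 556 ± 90.1 CPM over 5. Single genes spanned from 315 CPM for Vps37b to 1.42 CPM for Vps13c, and 29 of the 44 had 100 or more reads over both libraries. Vps37b, Vps35 and Chmp7 were among the 4 highest members in both libraries, and the Vps13 genes, Chmp4c and Vps37d were the lowest in both.

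**Figure D1:**
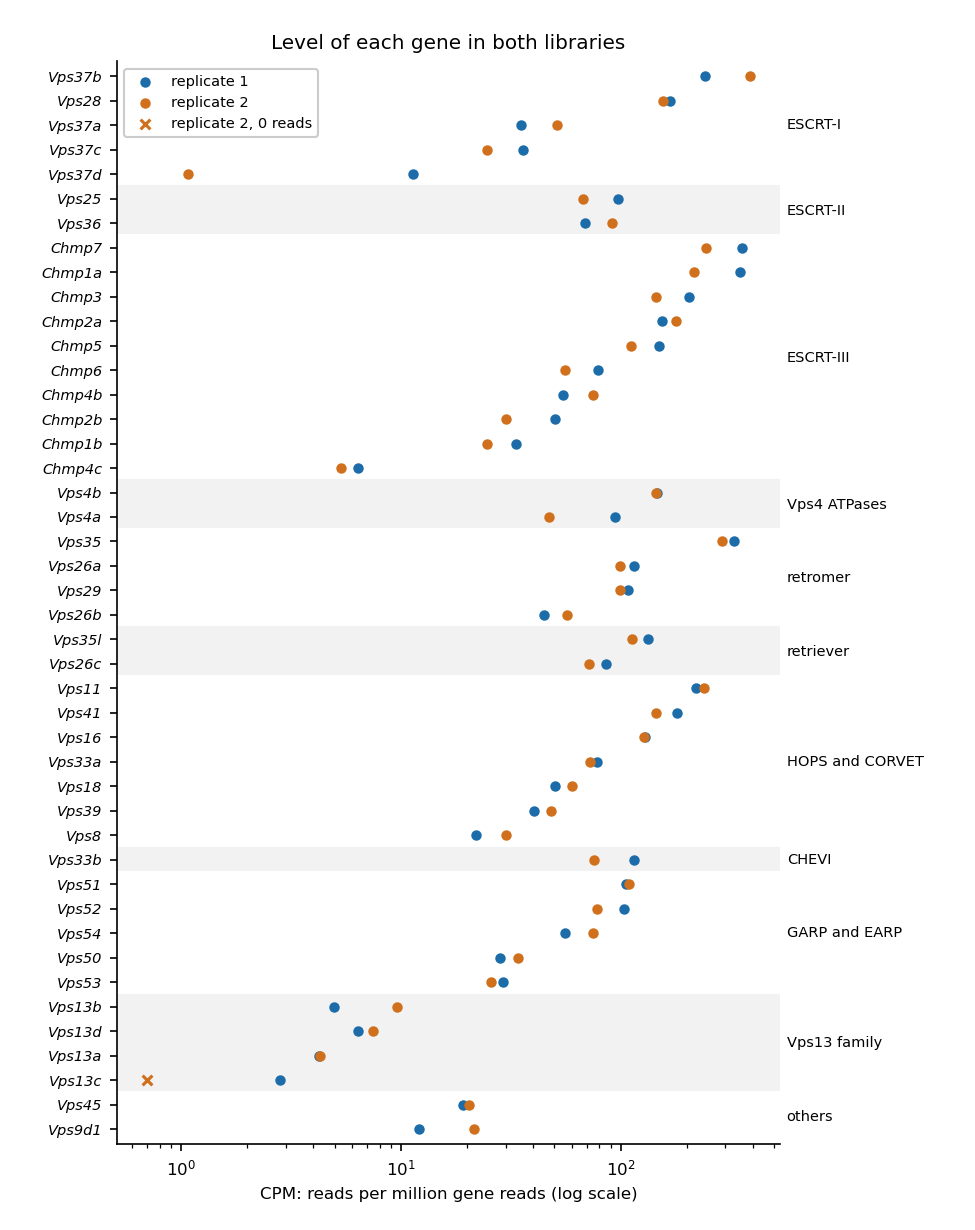
Level of each of the 44 genes on a log axis, in CPM, with 1 point per library and genes grouped by complex. Vps37b, Vps35, Chmp7 and Chmp1a are highest by the mean of both, and the cross marks the 0 reads of Vps13c in replicate 2, which has no true place on a log axis.

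Among ESCRT-I genes, Vps37b was the most abundant, with 343 reads (243 CPM) in replicate 1 and 362 (388 CPM) in replicate 2. Vps37 proteins form the stalk of ESCRT-I and exist as 4 paralogs. Vps28, the subunit through which ESCRT-I meets ESCRT-II, had 236 and 145 reads, 161 ± 8.33 CPM (SD, n = 2). Vps37a had 50 and 48 reads and Vps37c had 51 and 23. Vps37d was close to the limit of detection, with 16 reads in replicate 1 and 1 in replicate 2. So of the 4 Vps37 paralogs, Vps37b took most of the reads in both libraries. The longest coding transcript has 2522 nt for Vps37b and 6379 nt for Vps37a, so the limit on length applies to this pair.

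Of ESCRT-II, Vps25 had 137 and 63 reads (82.2 ± 20.9 CPM) and Vps36, the subunit that binds ubiquitin and membrane lipid, had 97 and 85 (79.8 ± 15.8 CPM; SD, n = 2). The order of the pair differed between the libraries, with Vps25 higher in replicate 1 and Vps36 higher in replicate 2. Vps25 reads split between 2 annotated last exons. The downstream one was used by 120 of 130 reads in replicate 1 (92.3%, exact interval 86.3 to 96.2) and by 55 of 57 in replicate 2 (96.5%, 87.9 to 99.6). The other 12 reads ended in an upstream last exon, so 6.42% of informative Vps25 reads carried another coding end. The coding ends of both forms are shown because they differ in length and sequence, with the last exon in capitals and the stop codon left off. They lie on the plus strand of mm10 at chr11:101258910-101259019 and chr11:101257901-101257926.
Vps25-202 coding end: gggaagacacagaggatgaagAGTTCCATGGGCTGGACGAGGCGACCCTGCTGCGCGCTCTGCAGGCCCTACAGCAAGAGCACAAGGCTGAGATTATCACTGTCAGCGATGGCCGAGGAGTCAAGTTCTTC
Vps25-201 coding end: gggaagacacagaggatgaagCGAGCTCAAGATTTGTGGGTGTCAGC
The first ends in 110 coding bases of its own and the second in 26.

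ESCRT-III was led by Chmp7, which also recruits ESCRT-III to the nuclear envelope, with 502 and 228 reads (300 ± 78.6 CPM; SD, n = 2). Chmp1a, a late-acting subunit, had 492 and 201 reads (282 ± 94.0 CPM). Chmp3 had 290 and 136 reads (175 ± 42.2 CPM), and Chmp2a, its partner in recruiting Vps4, had 219 and 167 (167 ± 16.8 CPM). Chmp5, Chmp6, Chmp4b, Chmp2b and Chmp1b ranged from 130 down to 28.9 CPM. Chmp4 proteins form the bulk of the filament, and of their genes Chmp4b had 77 and 70 reads while Chmp4c had 9 and 5. Their longest coding transcripts have 1616 and 6188 nt, so the limit on length applies here too. The ATPase genes Vps4b and Vps4a, which end the ESCRT-III cycle, stood at 146 ± 0.126 and 70.6 ± 33.2 CPM (SD, n = 2). Vps4b had 206 and 136 reads and the same CPM in both, whereas Vps4a had 133 and 44.

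Chmp1a was the single member, among the 36 with 20 or more reads in both libraries, whose main isoform was not annotated. An isoform here is an intron chain, the ordered splice junctions of a model, and unannotated single-exon models of a gene are pooled as 1 isoform. The main isoform is the one with most reads over both libraries. An unannotated main isoform was found in 842 of 6413 annotated genes at this depth (13.1%) against 1 of 36 members (2.78%). This count takes in incomplete and genomic models, classes described below. With both classes left out it was 212 of 5332 genes against 1 of 33 members. The gene lies on the minus strand at chr8:123204264-123212763, with 7 exons in its annotated coding transcript Chmp1a-201. The second exon is 20 nt long, at chr8:123210216-123210235, and lies in the coding part close to the start codon. The start of the Chmp1a-201 coding sequence is shown because the main form lacks the bases in capitals, which are this exon.
Chmp1a-201 coding start: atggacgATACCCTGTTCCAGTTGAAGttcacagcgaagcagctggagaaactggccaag
Exon 1 contributes the 7 bases before the capitals, start codon included.

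The main form of Chmp1a held 413 of 492 reads in replicate 1 (83.9%, exact interval 80.4 to 87.1) and 168 of 201 in replicate 2 (83.6%, 77.7 to 88.4). It had 6 exons. Exon 1 ran 25 nt further into the intron, to position 123212641 in place of 123212666, and its next exon was exon 3 of Chmp1a-201. Chmp1a-201 itself held 13 and 4 reads. Another unannotated form, with 14 and 2 reads, also lacked exon 2 but kept the annotated end of exon 1, and exon 3 began 20 nt earlier. Over all models that spanned from exon 1 to exon 3, exon 2 was present in 14 of 449 reads in replicate 1 (3.12%, 1.71 to 5.18) and in 4 of 180 in replicate 2 (2.22%, 0.609 to 5.59). The longer first exon was in 585 of these 629 reads (93.0%). Skipping with both neighbouring borders as annotated was seen in 1 read. Single-exon genomic models held 38 reads in replicate 1 and 21 in replicate 2, and in replicate 1 the deposited tables list 37 of these on a model of 1 nt, at the 3′ end of the gene. Chmp1a counts include them, and without genomic models Chmp1a still passed the exact binomial test between libraries. Whether the added 25 nt are in the RNA, or are how reads over the 20 nt exon were aligned, was not tested, so the absence of exon 2 is a property of the deposited models. As deposited, and set against Chmp1a-201, the main form gains 25 and loses 20 coding-region bases, a net 5, which is not a multiple of 3, while the 20 nt shift at exon 3 leaves the length as it was. The protein made from either form was not measured.

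**Figure D2:**
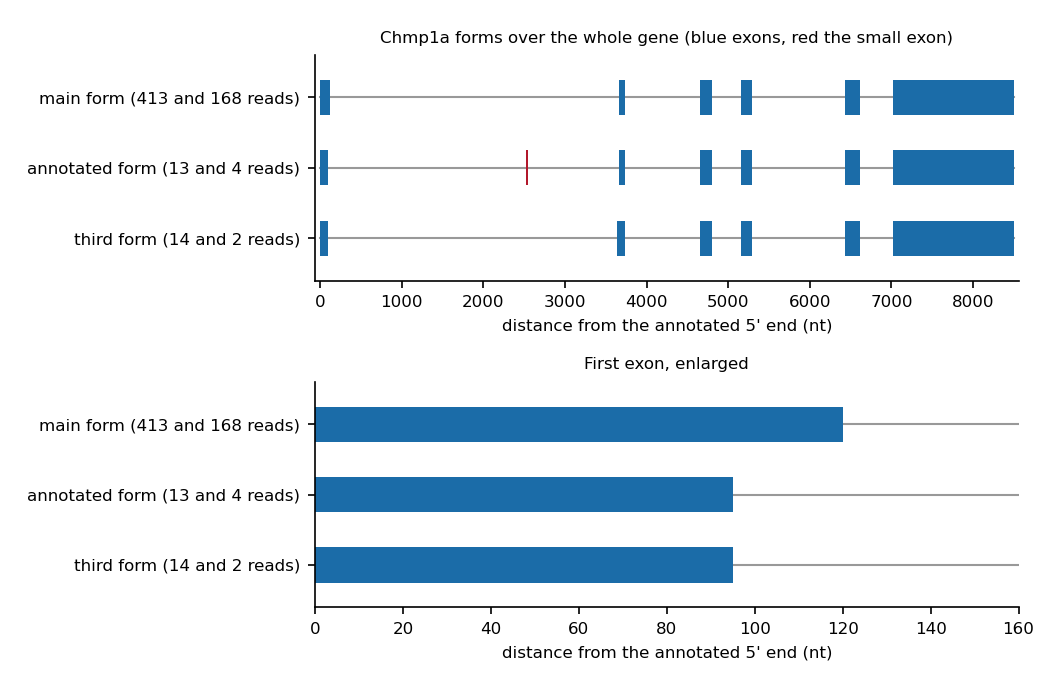
Exon maps of the 3 spliced Chmp1a forms with most reads, as distance from the annotated 5′ end in nt (the annotated form is Chmp1a-201), over the whole gene above and over the first exon below. The 20 nt exon (red) is in Chmp1a-201 alone, and the first exon of the main form is 25 nt longer.

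Exons as short as this one were rare among genes with enough reads. Of the reference transcripts of coding genes, 24 internal exons of up to 20 nt had at least 20 reads spanning both neighbours, and 4 of them (16.7%) were held in under 50% of those reads. For exons of 51 to 100 nt the same share was 0.325% of 19401, and among members no exon longer than 20 nt fell below 54.3%. The 4 exons belong to Chmp1a, Rrp1, Trim44 and Rapgef4, named here after their values were seen. All 4 are exactly 20 nt long, and in all 4 the exon just upstream was longer in the commonest form, by 25, 12, 16 and 17 nt in that order. The other 7 exons of exactly 20 nt were held in over 80% of spanning reads, and the 13 shorter ones in at least 64.5%. For these 4 exons too, RNA and read alignment as sources of the longer upstream exon were not tested, and the intron sequence beside them was not used here.

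**Figure D3:**
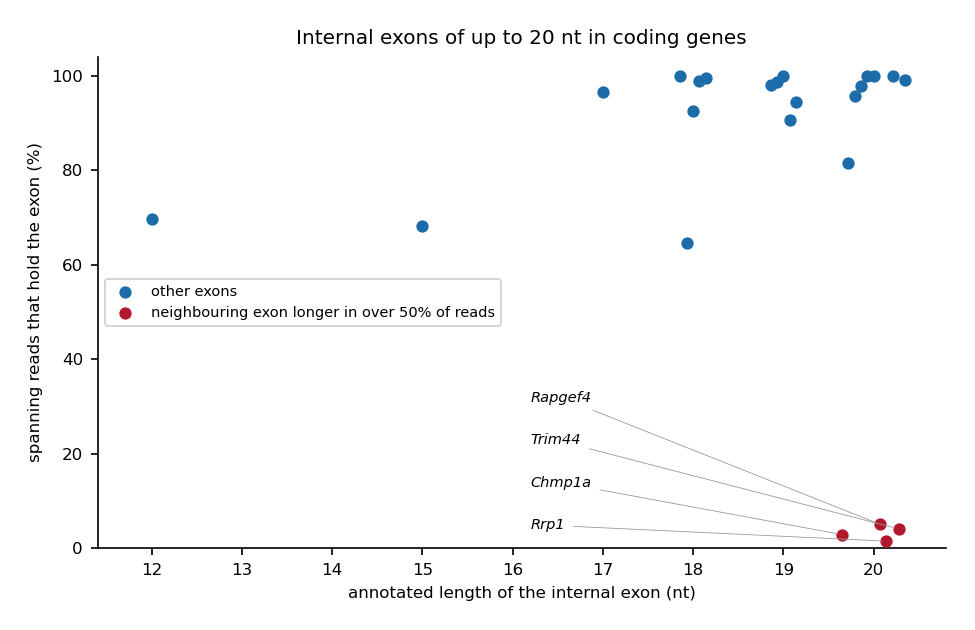
Share of spanning reads that hold an internal exon (percent, both libraries summed) against the exon's annotated length in nt, for the 24 exons of up to 20 nt; points of equal length are set side by side. The 4 red exons, Chmp1a among them, all have 20 nt and lie below 6%, and the neighbouring exon was longer by about as many bases (within 10 nt) in over 50% of their reads.

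The retromer subunit gene Vps35, the scaffold of the complex, had 463 and 270 reads (308 ± 27.3 CPM; SD, n = 2). Vps26a had 163 and 93 reads (107 ± 11.2 CPM) and Vps29, which the retriever shares, had 152 and 93 (104 ± 5.66 CPM). Vps26b, the paralog of Vps26a, had 63 and 53 (50.7 ± 8.6 CPM). The retriever genes Vps35l and Vps26c had 188 and 105 reads (123 ± 14.6 CPM) and 121 and 67 (78.7 ± 9.83 CPM). In both libraries the retromer scaffold thus had more reads than its retriever counterpart. The longest coding transcript has 3474 nt for Vps35 and 5097 nt for Vps35l, so the limit on length applies to this pair. The 6 genes were mostly read as their annotated forms: the main isoform held from 78.2% of reads for Vps35l to 95.5% for Vps29.

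Of the tethering complexes, the core gene Vps11, shared by HOPS and CORVET, was highest with 313 and 223 reads (230 ± 12.2 CPM; SD, n = 2). Vps41, found in HOPS only, had 255 and 136 (163 ± 24.6 CPM), Vps16 had 183 and 119 (128 ± 1.49 CPM) and Vps33a had 110 and 68 (75.3 ± 3.57 CPM). Vps18, Vps39 and the CORVET subunit gene Vps8 ranged from 55.1 down to 26.0 CPM. Vps33b, whose protein pairs with Vipas39 in the CHEVI complex, had 162 and 71 reads (95.3 ± 27.3 CPM). Vps18 had the largest share of incomplete splice matches of the measured members, 45.7%. A model of its last 2 exons alone had 28 and 24 reads, beside 38 and 29 for the full form.

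Vps39, which codes for a HOPS subunit, differed between the libraries in its isoforms. The main form Vps39-201 held 23 of 57 reads in replicate 1 (40.4%, exact interval 27.6 to 54.2) and 34 of 45 in replicate 2 (75.6%, 60.5 to 87.1; Fisher's exact test, two-sided, adjusted p = 0.032). Several other classes of Vps39 reads had larger shares in replicate 1. Incomplete matches held 21.1% against 13.3% in replicate 2, and genomic models 10.5% against 6.67%. Vps39-202, which holds 1 more exon of 33 nt, had 10 reads in replicate 1 and 0 in replicate 2, which is part of the difference only. Among reads with the junctions around this exon, 10 of 36 included it in replicate 1 (27.8%, 14.2 to 45.2) and 0 of 34 in replicate 2, where the interval reaches 10.3%. The exon lies on the minus strand at chr2:120346857-120346889, and its 33 bases keep the reading frame. It is shown in capitals with its coding neighbours since its inclusion is what separates Vps39-202 from Vps39-201.
Vps39-202 exon: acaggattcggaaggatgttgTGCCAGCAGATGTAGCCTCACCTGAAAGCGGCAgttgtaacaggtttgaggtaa
All 10 reads with the exon were in replicate 1, the library that also held the skeletal muscle reads, and the source of the exon was not tested.

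In GARP and EARP, Vps51, common to both, had 150 and 102 reads (108 ± 2.16 CPM; SD, n = 2) and Vps52 had 147 and 73 (91.1 ± 18.3 CPM). Vps54, found in GARP only, had 79 and 70 reads (65.4 ± 13.5 CPM), above its EARP counterpart Vps50 with 40 and 32 (31.3 ± 4.21 CPM). Vps53 had 41 and 24 reads (27.4 ± 2.35 CPM). Vps54 had the lowest main isoform share of the measured members, 36.2%, held by Vps54-201. Vps54-202, also annotated, held 29.5%, forms with a new splice site 15.4% and incomplete matches 10.7%. The 2 annotated forms differ in where exon 3 begins. The upstream start was used by 37 of 75 reads in replicate 1 (49.3%, exact interval 37.6 to 61.1) and 40 of 66 in replicate 2 (60.6%, 47.8 to 72.4). That start adds 36 coding bases, at chr11:21264630-21264665 on the plus strand, which keep the reading frame. They are shown in capitals as the bases that set Vps54-201 apart from Vps54-202.
Vps54-201 exon 3 start: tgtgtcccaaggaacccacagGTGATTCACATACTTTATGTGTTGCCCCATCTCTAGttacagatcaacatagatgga
The intervals of the 2 libraries overlap, and both forms were well represented in each.

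The Vps13 family, very long bridge-like lipid transfer proteins at membrane contacts, was barely read. Vps13a had 6 and 4 reads, Vps13b had 7 and 9 and Vps13d had 9 and 7. Vps13c had 4 reads in replicate 1 and 0 in replicate 2, where a count of 0 allows up to 3.21 CPM (3 reads). Not 1 of the 46 reads carried a complete annotated chain. Their longest coding transcripts run from 10838 to 15849 nt with 62 to 85 exons, and the longest model read from any of them was 4887 nt. Among all coding genes with reads, 48.8% of the 508 with a longest coding transcript above 9000 nt had a read on an annotated transcript, against 88.9% of those of 2001 to 4000 nt. Median reads per gene were 13 and 44 in these length classes, so low counts of the Vps13 genes cannot be told apart from poor recovery of long cDNA. Of the remaining members, Vps45, a regulator of endosomal SNARE fusion, had 27 and 19 reads and Vps9d1 had 17 and 20. Pooled single-exon models led in Vps9d1 with 21.6% of its reads, ahead of Vps9d1-203 with 18.9%.

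Most members were read as their annotated full form. For the 36 genes measured for isoforms, the median share of the main isoform was 80.4% (quartiles 73.2 and 88.6), and over the 6269 coding genes of that depth it was 72.2% (50.7 and 86.4). It was above 80% in 18 of the 36 and below 60% in 5. Reads are classed as annotated or as incomplete splice matches, which lack one or both ends. The other classes are new combinations of known splice sites, forms with a new splice site, and genomic where reads match no spliced transcript. Incomplete matches made up 6.32% and 7.66% of members' reads in the 2 libraries, below the 12.4% and 13.3% over all coding genes. These shares are over pooled reads, in which abundant genes weigh most. Per gene the gap was smaller, with a median of 5.87% over the 36 members and 7.77% over the 6269 coding genes. Forms with a new splice site made up 9.42% and 7.93%, above 3.11% and 3.34% over all coding genes. Chmp1a alone gave most of these, since 87.7% of its reads were in this class and the next highest measured member, Vps54, had 15.4%.

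**Figure D4:**
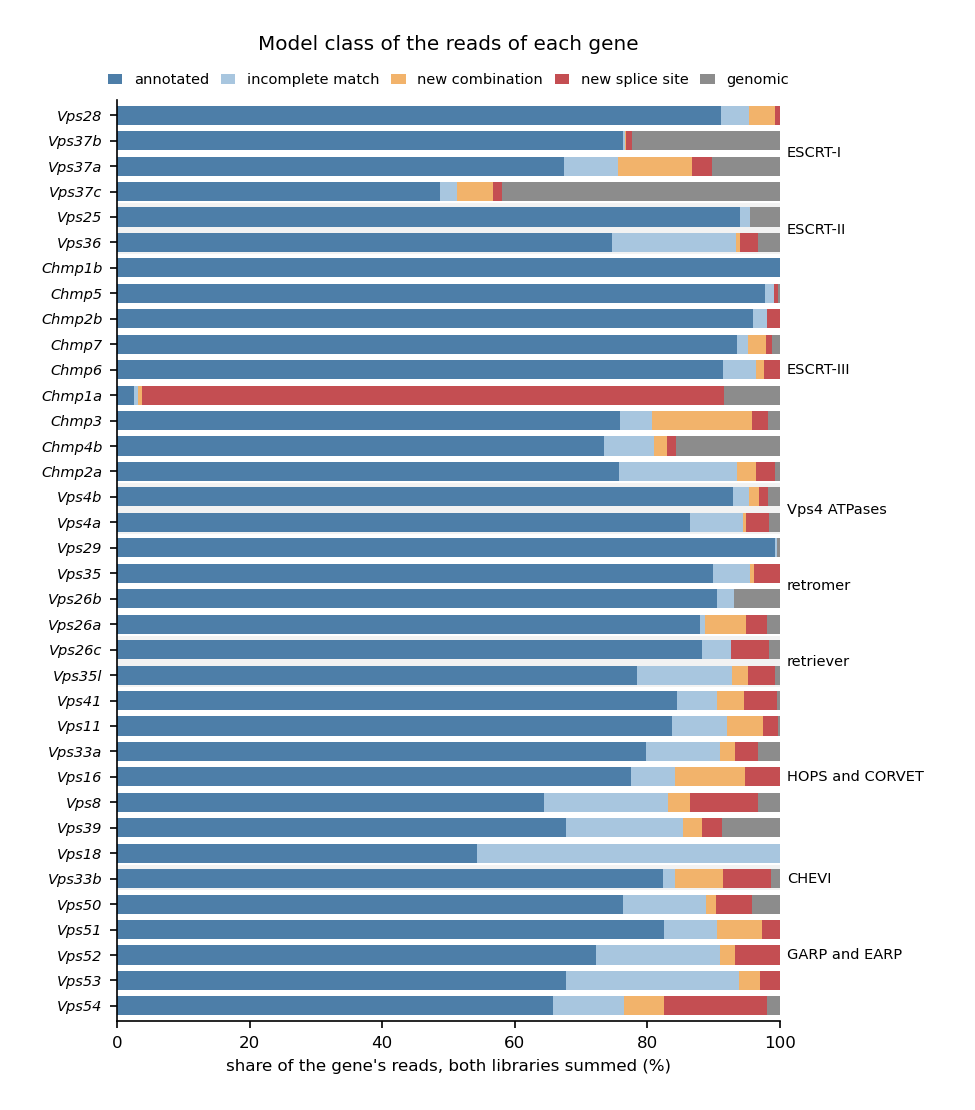
Share of each gene's reads in the 5 model classes (percent, both libraries summed) for the 36 genes measured for isoforms, grouped by complex. Chmp1a stands out by its forms with a new splice site, Vps18 by incomplete matches, and Vps37c and Vps37b by genomic models.

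Among the 36 genes measured for isoforms, Vps37c and Vps37b had the highest shares of genomic models. These held 41.9% of Vps37c reads, where 31 reads were on single-exon models that overlap the last exon, beside 32 reads on Vps37c-201. In Vps37b they held 15.5% of reads in replicate 1 and 28.7% in replicate 2. Nearly all were 1 single-exon model of 187 nt at the 3′ end of the last exon, chr5:124004641-124004827, beyond the coding part, with 53 and 102 reads. The share of Vps37b-201 was 83.7% in replicate 1 (exact interval 79.3 to 87.4) and 69.3% in replicate 2 (64.3 to 74.0; Fisher's exact test, adjusted p = 0.00131). Genomic models were also more frequent in replicate 2 over all annotated genes, 5.87% against 3.54% of gene reads, and their part in this difference was not tested. With incomplete and genomic models left out, Vps37b no longer passed the test.

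Fisher's exact test of the main isoform share passed in 3 of 36 members (8.33%), namely Vps37b, Vps39 and Vps52, and in 142 of 6413 annotated genes (2.21%). Vps52-201 held 118 of 147 reads in replicate 1 (80.3%, exact interval 72.9 to 86.4) and 41 of 73 in replicate 2 (56.2%, 44.1 to 67.8; Fisher's exact test, adjusted p = 0.0239). Its incomplete matches were 14.3% of reads in replicate 1 and 27.4% in replicate 2, while over all coding genes they differed less, 12.4% against 13.3%. Vps52 forms with a new splice site also rose, from 4.08% (6 reads) to 12.3% (9 reads), and new combinations from 1.36% to 4.11%. Without incomplete and genomic models, Vps39 alone passed. Fisher's exact test gave 5 of the 36 an unadjusted p below 0.05. A chi-square test over all isoforms called none of the 36, with 3 at an unadjusted p below 0.05.

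Between the libraries, 7 of 43 members with at least 10 reads passed the exact binomial test at an adjusted p of 0.05 (16.3%), against 1373 of 11068 annotated genes (12.4%). Of the 7, 6 were higher in replicate 1, where the share over all genes was 6.21%, and Vps37b was higher in replicate 2, where it was 6.2%. The median log2 ratio of replicate 2 over 1, after TMM scaling, was -0.14 over the members and 0.0046 over all genes tested, and 26 of the 43 had a ratio below 1. At a minimum of 50 reads the test called 7 of 36 members, against 20.2% of 6491 annotated genes. The test covers counting error only. edgeR's exact test with a common coefficient of variation of 21.5% called none of the members and 27 of 11068 genes, with 2 members at an unadjusted p below 0.05. That coefficient was estimated from the same 2 libraries taken as replicates. The difference under test had thus already set the spread, so few calls follow from the setup and this is no independent check. With spike-in totals as the scale, which moved the median of all genes to -0.32, 19 members passed, 18 of them higher in replicate 1, and all genes split into 2210 higher in replicate 1 and 261 in replicate 2.

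**Figure D5:**
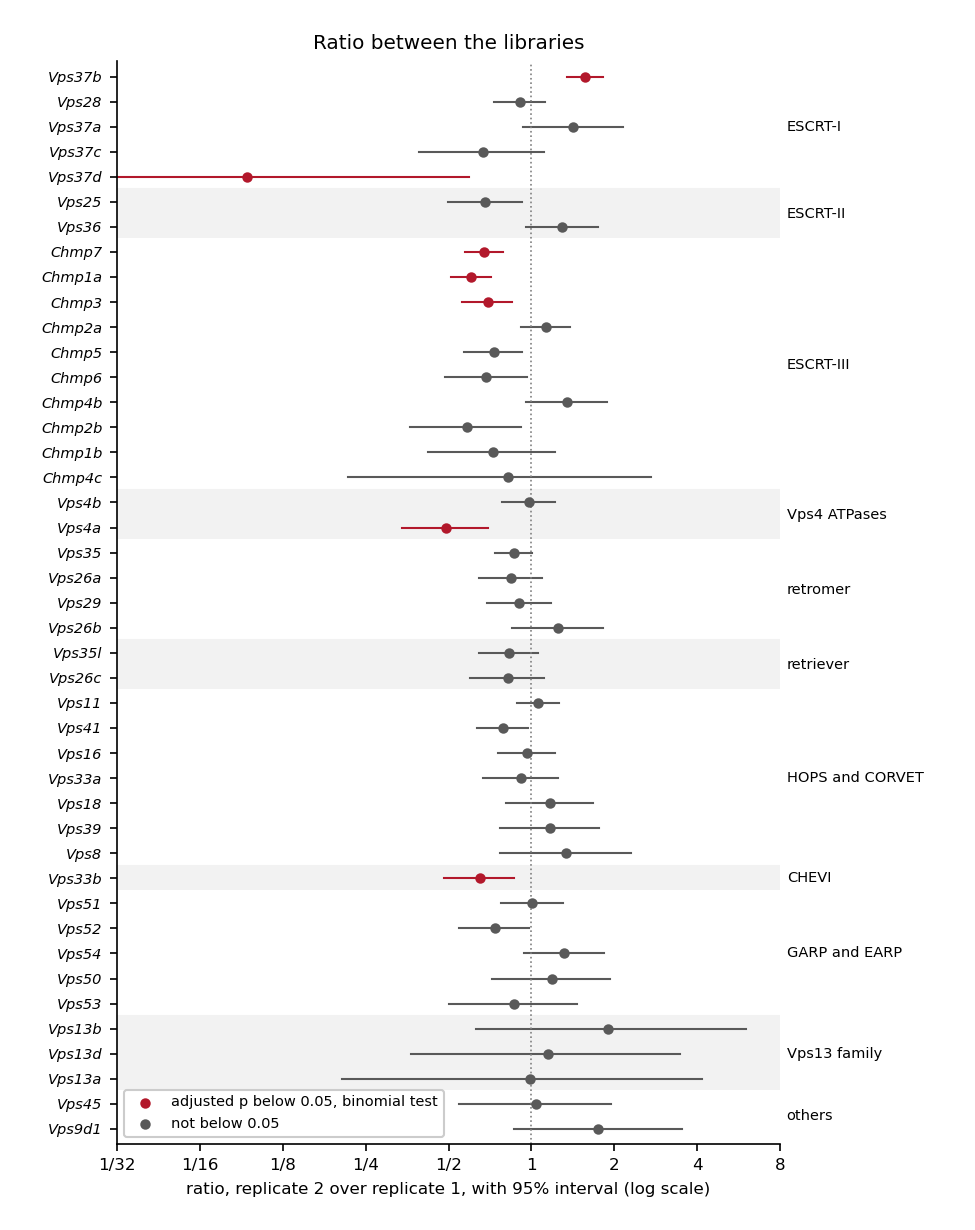
Ratio of replicate 2 over replicate 1 for the 43 genes tested, after TMM scaling, with exact 95% intervals on a log axis. The 6 genes higher in replicate 1 (red, left) are Vps37d, Chmp7, Chmp1a, Chmp3, Vps4a and Vps33b, Vps37b is the red point on the right, and the interval of Vps37d runs past the left edge.

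Of the 10 ESCRT-III genes, 3 passed the test as higher in replicate 1, where the share over all genes was 6.21%. Chmp1a was 1.65-fold higher there (exact interval 1.4 to 1.96; exact binomial test, adjusted p = 3.6e-08) and Chmp7 1.49-fold (1.27 to 1.75, adjusted p = 1.43e-05 by the exact test). Chmp3 was 1.44-fold higher (1.17 to 1.78; exact binomial test, adjusted p = 0.00552). The test calls a larger share of deeply read genes. At a minimum of 50 reads, 675 of 6491 annotated genes were called higher in replicate 1, and Chmp5 passed too. A ratio of replicate 2 over 1 below 1 was seen for 8 of the 10, and Chmp2a and Chmp4b were the exceptions. Over all genes tested the median log2 ratio was 0.0046. Summed over the complex, ESCRT-III had 2030 reads in replicate 1 and 1014 in replicate 2, 1.35-fold more in replicate 1 after scaling (interval 1.25 to 1.46). Chmp1a, Chmp7 and Chmp3 gave most of these reads, so the sum repeats their calls and is no separate result on the complex. All 44 members summed gave 1.12-fold (1.08 to 1.17). HOPS and CORVET genes summed to 1020 and 675 reads, 1.02-fold (0.926 to 1.13), and GARP and EARP genes to 457 and 301, 1.03-fold (0.885 to 1.19), with none past the test. The difference between complexes was not tested.

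Vps4a was 2.04-fold higher in replicate 1 (exact interval 1.44 to 2.94; exact binomial test, adjusted p = 0.000517), while its paralog Vps4b had 1.02-fold (0.821 to 1.28). Vps33b was 1.54-fold higher in replicate 1 (1.16 to 2.07; exact binomial test, adjusted p = 0.0219). Vps37d was 10.8-fold higher, but with 1 read in replicate 2 its interval ran from 1.68 to 454 (exact binomial test, adjusted p = 0.0246). Vps37b was 1.56-fold higher in replicate 2 (1.34 to 1.82; exact binomial test, adjusted p = 1.97e-07). On annotated transcripts alone, without the genomic models, its log2 ratio was 0.45 in place of 0.64 and still passed (exact binomial test, adjusted p = 0.00602). On the same basis Chmp1a, with 17 reads on its annotated form, had a log2 ratio of -1.05 in place of -0.72 and no longer passed (exact binomial test, adjusted p = 0.523).

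The partner genes of these complexes that carry other names, 45 with reads, gave 3 past the exact binomial test, where 12.4% of all genes tested passed. Snx1, a sorting nexin that works with the retromer, had 293 and 140 reads (adjusted p = 0.00921 by the exact test). Pik3c3, the lipid kinase that marks early endosomes, had 66 and 23 (adjusted p = 0.0416 by the exact test). Both were higher in replicate 1, whereas Eea1, an early endosome tether, was higher in replicate 2 with 28 and 44 reads (adjusted p = 0.00615 by the exact test). No other partner on the list passed. Over all 45 partners the median log2 ratio was -0.01, and the 3 most abundant were Rab7 (344 ± 22.6 CPM), Snx3 and Becn1 (SD, n = 2).

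Several members share their locus with other genes that had reads. On the same strand this held for 4 members, namely Vps25, Vps28, Vps51 and Vps53, and on the opposite strand for 14. Chmp1a and Vps9d1 both overlap Gm20388, a long gene model on the opposite strand with 97 and 83 reads. Vps4a overlaps Pdf on the opposite strand, which had 252 and 114 reads. How reads were divided between overlapping genes is not given in the sources used here and was not tested.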

How the data were processed

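The authors deposited, for each library, a table of long-read counts per transcript model without normalization, and the exon coordinates of each model, on mm10 with GENCODE M21 per the file headers. Model names follow the TALON program. The aligner, versions and read filters are not given in the sources used here. The annotation used here is the same release, and printed sequences are GENCODE M21 transcript sequences.

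Counts were summed per annotated gene, leaving out spike-ins and genes new to the annotation. Totals were 1412947 and 933963 reads, so a count of 0 allows up to 2.12 and 3.21 CPM (3 reads). TMM factors (0.989 and 1.01) came from genes with at least 10 reads. Each gene's reads were compared between libraries by a two-sided exact binomial test given its reads in both, and p-values were adjusted by the Benjamini-Hochberg method over 11068 genes. A prior of 0.5 reads entered log2 ratios only. Isoforms were matched by intron chain, unannotated single-exon models of a gene being pooled, and main isoform shares were compared by Fisher's exact test over the 6413 genes with 20 or more reads in both libraries. Intervals are exact 95% Clopper-Pearson intervals. An exon was counted as held when a model overlapping both neighbours contained it exactly. This count, and the check of small exons, were added after the data were seen.

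The members, complexes, partner and marker lists were chosen with earlier results of these data known. Named were the members with the highest CPM in each complex (up to 4), those past a test, with an unannotated main isoform or with 0 reads in a library, the other members by range or reads, and partners past a test or among the 3 most abundant. The partner list had 47 names, of which 45 matched, and the other 2 are older names of members. Hgs has more than 1 gene identifier, and the one with most reads was used.

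Both tests were tested on simulated data. Scaling and edgeR's exact test used edgeR 4.0.16 and DESeq2 1.42.0 in R 4.3.3. The exact tests used scipy 1.17.1, with pandas 2.3.3 and numpy 2.4.6 under Python 3.11.15, and figures were drawn with matplotlib 3.10.9. Alternatives were other scalings, read minimums, annotated transcripts only, models left out, other isoform keys, a chi-square test, edgeR's exact test and each library alone.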

Additional observations from a re-analysis of the deposited data

How the results depend on the processing

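Of 43 members, 7 passed the binomial test between libraries. The count was 8 of 43 with DESeq2 size factors and 7 of 43 with total gene reads, with 12.4% of all genes in each. It was 7 of 44 with a minimum of 1 read (6.63% of all genes) and 7 of 36 with 50 reads (20.2%). On annotated transcripts it was 7 of 38 (11.7%), and without genomic models 7 of 40 (13.4%). With spike-in totals 19 of 43 passed (22.3%). edgeR's exact test, whose coefficient of variation came from the same 2 libraries, called 0 of 43 (0.244%). At a minimum of 50 reads and on annotated transcripts, 6 of the 7 were among those called. The 3 of 36 members past Fisher's exact test were again 3 of 36 by transcript identifier, with 142 of 6413 genes. The count was 3 of 38 at 10 reads (125 of 8390 genes) and 2 of 27 at 50 reads (176 of 3705). It was 1 of 33 without incomplete and genomic models (53 of 5332) and 0 of 36 by the chi-square test over all isoforms (50 of 6413). The single unannotated main isoform, that of Chmp1a, was the single one by identifier, without incomplete and genomic models and at 50 reads. At 10 reads there were 2, Vps9d1 being added. Leaving out 1 replicate gave from 1 to 2, Vps37c being added when replicate 1 stood alone. In Vps9d1 and Vps37c the added main isoform is the pool of single-exon models, not a new splice form. The members' share of gene reads ranged from 0.397% to 0.436% with 1 replicate left out and was 0.425% on annotated transcripts and 0.418% without genomic models. On annotated transcripts 39 members were detected in both libraries in place of 43. The log2 ratios of the 7 called members kept their direction in all 28 recalculations and their side of the threshold in 27, Chmp1a on annotated transcripts being the exception. The cause of the changes was not tested, except that fewer reads enter where models are left out. Depth limited 8 members, which had under 20 reads in a library. No paired analysis was possible because the series has 1 group.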
